A study of Mus musculus with 4 samples.

Results

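A set of 5 genes is described here in CD8+ T cells taken from mouse tumours: the transcription factor gene Maf, the cytokine gene Il10, the receptor chain genes Il10ra and Il10rb, and the transcription factor gene Prdm1. They are 5 of the 31253 genes listed in each count matrix. The set was chosen by measured values, since Maf had been seen to differ in opposite directions in both pairs of libraries, so the values of Maf below are a description and none was tested. The cells read were CD3 and CD8 positive barcodes, meaning at least 1 unique molecular identifier (UMI, a counted RNA molecule) of Cd3d, Cd3e or Cd3g and at least 1 of Cd8a or Cd8b1. Barcodes under 1000 UMIs, under 500 genes or over 10% mitochondrial UMIs were left out.

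All 4 libraries came from tumours of MB49, a bladder carcinoma line of mouse, sorted for CD45+CD8+ cells. WT was 1 library of CD8+ T cells from subcutaneous tumours in wild-type C57BL/6Slac mice aged 10 to 12 weeks, and KO was 1 library from BFAR-CD8-KO mice of the same strain and age, in which the labels give Bfar as absent from CD8+ T cells. The sources used here give neither the promoter or Cre line behind that deletion nor the part of the gene removed. Young and Aged were 1 library each from tumours in Rag1-/- hosts aged 8 to 10 weeks, which lack mature T and B cells and keep NK and other innate lymphoid cells. On the day of tumour inoculation these hosts were given donor CD8+ T cells by vein, and the donors were 8 weeks old for Young and 18 months old for Aged. The labels give the host strain as B6.129S7-Rag1tm0Mom/J for Young and B6.129S7-Rag1tm1Mom/J for Aged. Each library pooled 3 mice, so the spread between mice was not measured and the differences below rest on single libraries.

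Interleukin 10 is a cytokine that restrains inflammation and that T cells can make after strong or repeated stimulation. It binds a receptor of a ligand-specific chain, IL-10Rα (Il10ra), and a chain shared with other cytokines of the family, IL-10Rβ (Il10rb), and signals through the kinases JAK1 and TYK2 to STAT3. c-Maf (Maf) and Blimp-1 (Prdm1) are DNA-binding regulators known to promote Il10 transcription and the expression of co-inhibitory receptors in T cells, and Blimp-1 also drives terminal effector differentiation.

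The 4 libraries held 8966 (WT), 8153 (KO), 9803 (Young) and 8252 (Aged) such cells with 60805219 to 76204380 UMIs in all, and median UMI counts of 6341, 6870, 4510 and 5768 per cell. The kits differed between pairs (a 3' kit for WT and KO, immune profiling for the transferred cells), so levels were compared only within a pair. Bfar, the deleted gene, was at 32.1 UMIs per 1000000 (CPM) in WT, 22.4 in KO, 22.1 in Young and 26.0 in Aged. The KO level was 0.697 times that of WT (95% interval 0.654 to 0.743). Bfar RNA was thus still counted in KO, and reads outside the deleted part cannot check the deletion. Markers of the CD8 T cell list were all detected in every library, at 5008 to 7357 CPM in sum. Marker sums of other cell types differed within pairs: fibroblast genes were at 226 CPM in WT and 34.0 in KO, mast cell and basophil genes at 803 and 308, tumour or epithelial genes at 348 and 136, NK cell genes at 186 and 94.3, macrophage genes at 54.4 and 29.0, dendritic cell genes at 3906 in Young and 917 in Aged, and the list of CD4 and regulatory T cells at 203 in Young and 389 in Aged. Their part in the differences below was not tested beyond the omissions given. WT and KO shared 16 cell barcodes, Young and Aged 114, KO and Young 1, KO and Aged 1, and the remaining combinations 0. Without shared barcodes the Maf ratios given further on were 0.643 and 3.36.

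**Figure D1:**
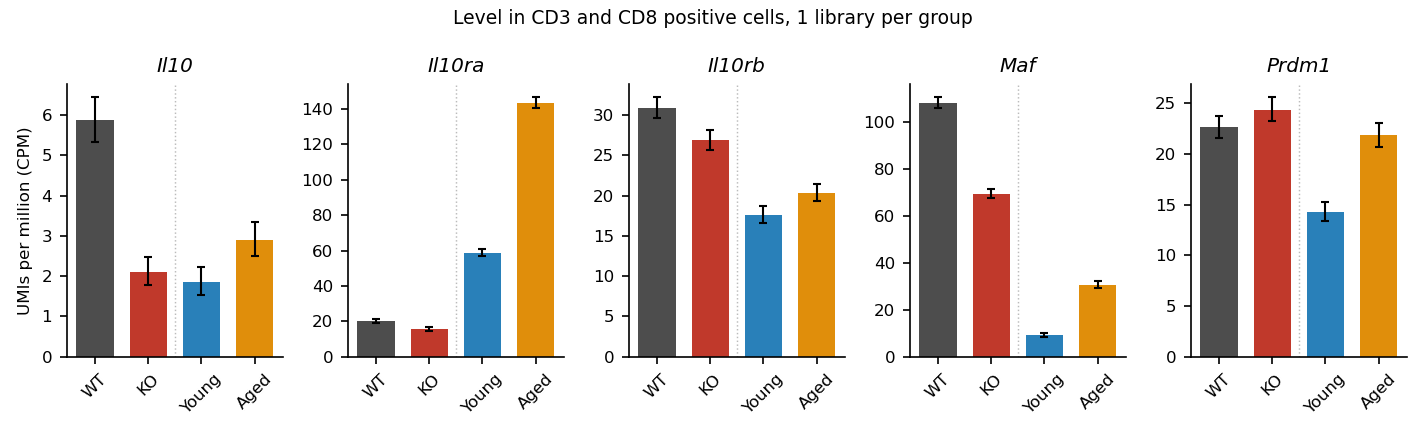
Level of the 5 genes in each library (vertical axis, UMIs per 1000000, from 0; bars, 1 library per group; error bars, exact 95% Poisson intervals covering counting error only; the dotted line parts the pairs, whose kits differ). Maf stood at 108 CPM in WT and 69.4 in KO, and at 9.06 in Young and 30.7 in Aged.

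Il10, the ligand (chromosome 1, 131019845 to 131024974, plus strand, 5 exons; positions here are on GRCm38), was the least abundant of the genes. It was counted 447 times in WT, 147 times in KO, 113 times in Young and 189 times in Aged, giving 5.87 CPM (5.34 to 6.44), 2.11 (1.78 to 2.48), 1.86 (1.53 to 2.23) and 2.901 (2.503 to 3.35). WT was high in the first pair and Aged somewhat higher in the second, and the counting intervals did not overlap within either pair. The KO level was 0.360 times that of WT (0.297 to 0.435) and the Aged level 1.56 times that of Young (1.23 to 1.99). Il10 did not reach 10 CPM in any library, so it was not among the measured genes counted further on.

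Few cells carried the Il10 counts. After each cell was thinned to 2000 UMIs, a UMI of Il10 was found in 1.13% of WT cells (100 of 8886), 0.382% of KO cells (31 of 8108), 0.381% of Young cells (35 of 9192) and 0.559% of Aged cells (45 of 8051). Without thinning these shares were 2.44%, 1.03%, 1.01% and 1.54%. The 10 cells with the most Il10 UMIs held 25.5% of all of them in WT, 40.1% in KO, 21.2% in Young and 28.0% in Aged, so a handful of cells weighed heavily in each level. Barcodes with tumour or fibroblast genes and no T cell or leukocyte UMI served as a background: they held 1 UMI of Il10 among 8215510 UMIs over the 4 libraries, or 0.122 CPM (upper bound 0.678). At 2000 UMIs, 0 of these 319 barcodes had a UMI, and 3 counts among them would be a share of 0.940%. Taken by library, the exact upper bounds were 4.56% in WT, 24.7% in KO, 3.05% in Young and 3.36% in Aged. The share of cells was thus not separable from background by share alone in any library. These barcodes were deeper, with medians of 18690 to 29940 UMIs.

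The Il10 counts sat in particular clusters, and not all of them were those of CD8 T cells. Each pair was clustered without the 5 genes and without Gzmb, Gzmk, Isg15 and Lag3, and clusters are called by 2 or 3 of their leading genes. In the first pair the cluster led by Setbp1 and Izumo1r held 61.3% of the WT and 27.9% of the KO Il10 UMIs, at 29.8 and 11.5 CPM. A small cluster led by Foxp3, Areg and Il2ra (70 WT and 99 KO cells) held 7.38% of the WT but 34.7% of the KO Il10 UMIs, at 50.03 and 42.6 CPM. In the other pair the highest level was in the cluster led by the macrophage genes Apoe and C1qb and by Cxcl2, at 15.1 CPM in Young and 19.1 in Aged. Without the clusters whose 10 leading genes included at least 2 markers of another cell type, an alternative chosen after seeing the data, the KO level was 0.234 times that of WT (0.185 to 0.295) and the Aged level 1.92 times that of Young (1.45 to 2.55). With clusters weighted by their mean share the ratios were 0.435 and 1.13, and with median-of-ratios scaling 0.372 and 1.47. Of 11 clusters with a ratio in the second pair, 0 had an interval above 1 and 1 had one below, the largest, led by Gzmm, Tcf7 and Tcp11l2, at 0.378 (0.127 to 0.944). The Il10 difference between Aged and Young was thus not seen within single clusters beyond counting error. The omitted clusters held 37.4% of the Il10 UMIs in KO against 11.0% in WT, and 34.5% in Young against 10.6% in Aged.

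Il10ra, which encodes the ligand-binding receptor chain (chromosome 9, 45253837 to 45269149, minus strand), was lower in KO than in WT and higher in Aged than in Young. It stood at 20.2 CPM in WT (19.2 to 21.2), 15.5 in KO (14.6 to 16.5), 58.7 in Young (56.7 to 60.6) and 144 in Aged (141 to 147). Aged was the high library of its pair and KO the low one of its own. The KO level was 0.768 times that of WT (0.710 to 0.830) and the Aged level 2.45 times that of Young (2.36 to 2.55). In thinned cells the share with a UMI was 3.95% in WT, 2.898% in KO, 10.3% in Young and 19.7% in Aged. The unthinned shares were 12.9%, 10.4%, 23.3% and 41.6%. In the background barcodes 1 UMI was counted among 8215510.

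The difference in Il10ra between Aged and Young was uneven over clusters. The cluster led by Ifnl2, Adap1 and Zbtb32 had the highest level, 843 CPM in 403 Aged cells and 359 CPM in 68 Young cells, and held 24.7% of the Aged Il10ra UMIs. In the cluster led by the histone genes Hist1h2ap, H1f5 and H2ac8 the levels were 122 CPM in Aged and 47.9 in Young. In the largest cluster, led by Gzmm, Tcf7 and Tcp11l2, they were 49.4 CPM in Aged and 52.1 in Young, a ratio of 0.949 (0.851 to 1.06). Of 12 clusters with at least 50 cells of each library, 7 had a ratio whose interval lay above 1 and 0 had one below. The 7 include a cluster with macrophage genes, led by Apoe, C1qb and Cxcl2 (2.88, 2.19 to 3.82). They also include a cluster with dendritic cell genes, led by H2-Ab1, H2-Eb1 and H2-Aa (1.62, 1.36 to 1.91). Without the clusters led by markers of other cell types the Aged level was 2.56 times that of Young (2.45 to 2.67). With every cluster given its mean share over both libraries, the Aged level was 1.61 times that of Young. In the first pair the same weighting gave 0.913, and the cluster led by Setbp1 and Izumo1r, where Il10ra was at 54.6 CPM in WT and 58.0 in KO, made up 1271 WT and 483 KO cells.

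Il10rb, the shared receptor chain (chromosome 16, 91406164 to 91425834, plus strand), differed little within the pairs. Its level was 30.9 CPM in WT (29.7 to 32.2), 26.9 in KO (25.7 to 28.1), 17.6 in Young (16.5 to 18.7) and 20.4 in Aged (19.3 to 21.5). KO was a little lower than WT, at 0.869 times (0.817 to 0.923), and Aged a little higher than Young, at 1.16 times (1.07 to 1.26). Thinned shares were 6.18%, 5.53%, 3.67% and 4.61% in the order WT, KO, Young and Aged, and unthinned shares 21.0%, 18.9%, 9.82% and 14.3%. Cells with both receptor chains were few: of cells with a UMI of Il10ra, 6.27% of WT, 7.23% of KO, 5.51% of Young and 5.74% of Aged cells had one of Il10rb, beside 6.18%, 5.47%, 3.46% and 4.33% of the other cells. Tumour and fibroblast barcodes carried Il10rb themselves and gave no background for it. Gm21970, which overlaps Il10rb on the same strand, was listed at 0, 0, 19 and 22 UMIs in WT, KO, Young and Aged, and reads could not be told apart where the genes overlap.

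Maf (chromosome 8, 115682942 to 115707794, minus strand, 3 exons in its first listed transcript) was counted 8230 times in WT, 4835 times in KO, 551 times in Young and 1997 times in Aged. Its level was 108 CPM in WT (106 to 110), 69.4 in KO (67.5 to 71.4), 9.06 in Young (8.32 to 9.85) and 30.7 in Aged (29.3 to 32.0). WT exceeded KO and Aged exceeded Young, and the intervals did not overlap in either pair. The KO level was 0.643 times that of WT (0.620 to 0.666) and the Aged level 3.38 times that of Young (3.08 to 3.72). Among measured genes, those with at least 20 UMIs in the pair and 10 CPM in 1 library, 3.09% were at least 1.5 times lower in KO and 2.62% at least 1.5 times higher in Aged. Maf was among both, which is how it was chosen and is given for scale only. In this ordering by log2 ratio from the top, Maf was number 7217 of 7415 genes in KO over WT and number 24 of 7938 in Aged over Young.

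Both the share of cells and the count per cell differed. A Maf UMI was found in 16.2% of thinned WT cells, 10.7% of KO cells, 2.07% of Young cells and 5.75% of Aged cells, and without thinning in 29.6%, 22.9%, 4.93% and 15.2%. Among thinned cells with Maf, the mean count was 1.70 UMIs in WT, 1.55 in KO, 1.08 in Young and 1.17 in Aged. The most Maf UMIs in a single cell were 36 in WT, 27 in KO, 4 in Young and 12 in Aged. Tumour and fibroblast barcodes carried Maf, at 28.2 CPM in WT, 22.8 in KO, 7.03 in Young and 6.29 in Aged. The Young level was thus near theirs. Thinned, 6 of 79, 0 of 13, 4 of 119 and 2 of 108 of them had a Maf UMI. The exact upper bounds were 15.8%, 24.7%, 8.38% and 6.53%, and only the share of WT cells lay above its bound. The cells of the cluster with Dapl1 and Ccr7 among its leading genes therefore served as the low reference. This cluster held 0 Maf UMIs in 193 Young cells and 3 in 108 Aged cells. Gm15655, annotated antisense within Maf, had 148, 104, 0 and 4 UMIs in WT, KO, Young and Aged.

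**Figure D2:**
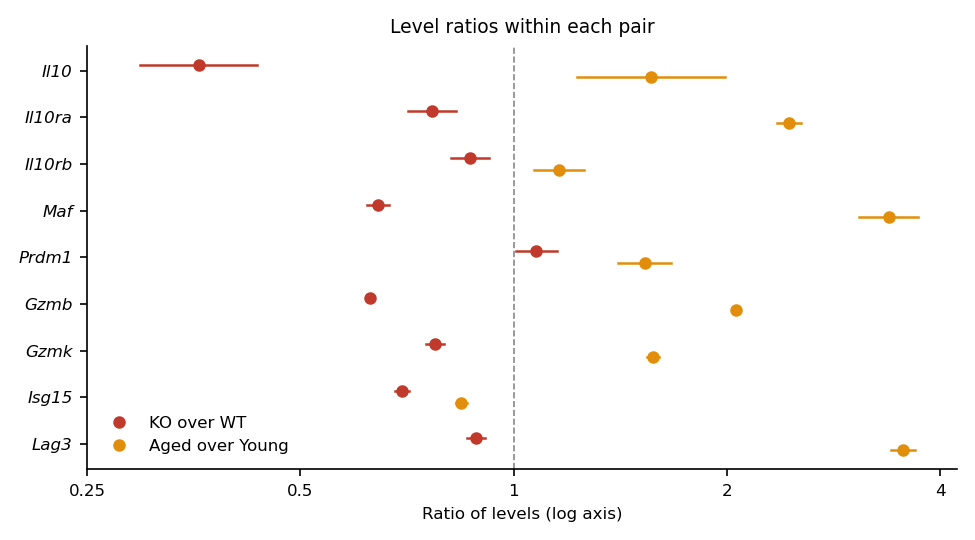
Ratio of levels within each pair (horizontal log axis) for the 5 genes and the 4 linked genes, with exact 95% intervals for counting error; red, KO over WT, and orange, Aged over Young; the dashed line marks a ratio of 1. Maf, Gzmb, Gzmk and Lag3 lay below 1 in KO over WT and above 1 in Aged over Young, whereas Isg15 lay below 1 in both.

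The Maf difference was then read within cells of like granzyme content. Gzmb and Gzmk encode granzymes, serine proteases of cytotoxic granules that mark effector and memory-like effector states, and thinned cells were classed by which of them they held. In the first pair Maf was lower in KO in all 4 classes: the ratio was 0.685 (0.613 to 0.765) in cells with neither, 0.677 (0.544 to 0.840) with Gzmk alone, 0.689 (0.606 to 0.783) with Gzmb alone and 0.568 (0.493 to 0.654) with both. The level was highest in cells with both, at 310 CPM in WT and 176 in KO. In the second pair the ratio of Aged over Young was 1.27 (0.831 to 1.92) in cells with neither, 1.94 (1.21 to 3.12) with Gzmk alone, 2.33 (1.73 to 3.18) with Gzmb alone and 5.37 (3.89 to 7.56) with both. Maf in Young was flat over the classes, from 9.28 to 14.6 CPM, while in Aged it was 13.9 CPM in cells with neither and 49.8 in cells with both. With the classes given equal weights, the ratio was 0.632 in KO over WT and 2.56 in Aged over Young.

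Maf also lay unevenly over clusters. In the first pair 3 clusters stood above the rest. The cluster led by Foxp3, Areg and Il2ra, regulatory T cell genes, was at 391 CPM in WT and 376 in KO. The cluster led by Setbp1 and Izumo1r was at 377 CPM in WT (365 to 390) and 262 in KO (246 to 280), and the cluster led by Il17a, Il17f and Cpm, with genes of interleukin 17 cytokines, at 357 and 296 CPM. No other cluster with at least 50 cells of each library passed 120 CPM. Maf was lower in KO in 12 of these 13 clusters, with an interval below 1 in 9 of them. The exception, with Fam241a and Dapl1 among its leading genes, was at 7.92 CPM in WT and 10.1 in KO with an interval that spanned 1.

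The number of cells in the Setbp1 and Izumo1r cluster moved with the pair as well. It held 1271 WT and 483 KO cells and 42.1% and 19.3% of the Maf UMIs of these libraries. Without it the KO level was 0.830 times that of WT (0.796 to 0.866), and with clusters weighted by their mean share 0.745 times, so neither value passed 1.5 times. Without the clusters led by markers of other cell types the ratio was 0.571. That omission kept the Il17a, Il17f and Cpm cluster, which held 15.9% of the KO and 10.5% of the WT Maf UMIs. It had 1 gamma delta T cell marker among its 10 leading genes, from which T cell receptor genes were left out. These weightings and omissions were chosen after seeing the data. Cells of all these clusters had passed the CD3 and CD8 rule.

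In the transferred cells the cluster led by Sdcbp2, Itga4 and Setbp1 held 54.9% of the Aged Maf UMIs. It had 2457 Aged and 287 Young cells, and its Maf level was 62.5 CPM in Aged (58.9 to 66.3) and 10.8 in Young (6.66 to 16.4). The cluster led by Ifnl2, Adap1 and Zbtb32 was as high in Aged, at 67.2 CPM, with 2 UMIs in 68 Young cells. Aged was higher in 9 of the 11 clusters with at least 50 cells of each library and a ratio, and in 8 the interval lay above 1. The exceptions were led by Ifitm1, Ifitm2 and Il7r, at 7.97 CPM in Aged and 11.6 in Young, and by Tnfsf11, Gstm5 and Krt83, at 10.8 and 14.9. The 8 with an interval above 1 include a cluster with macrophage genes, led by Apoe, C1qb and Cxcl2 (2.26 times). They also include a cluster with dendritic cell genes, led by H2-Ab1, H2-Eb1 and H2-Aa (2.88 times). Without the clusters led by markers of other cell types the Aged level was 3.26 times that of Young. Without the Sdcbp2, Itga4 and Setbp1 cluster the Aged level was 2.10 times that of Young (1.89 to 2.34), a value 1.6 times smaller than with it.

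**Figure D3:**
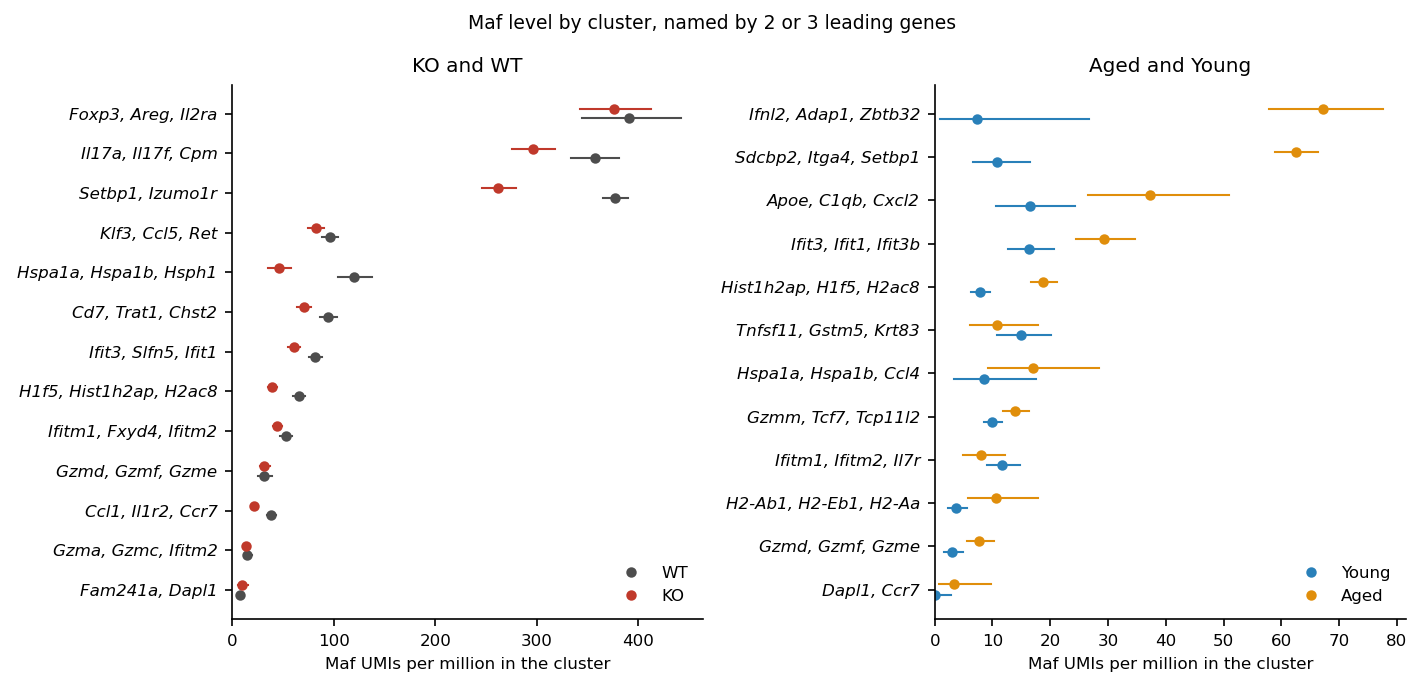
Maf level (horizontal axis, UMIs per 1000000, from 0) in each cluster with at least 50 cells of both libraries of a pair, named by 2 or 3 leading genes; points, 1 library each; lines, exact 95% Poisson intervals. In WT and KO the 3 clusters at the top lay between 262 and 391 CPM, and in Aged the 2 clusters at the top lay at 62.5 and 67.2 CPM while Young stayed under 17 CPM throughout.

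The level was also read by T cell receptor V beta segment. In Aged, Trbv12-1 was found in 25.2% of cells, which had Maf at 24.5 CPM, and cells of segments beyond the 4 commonest had 39.2 CPM. In Young the commonest segment was Trbv26, in 16.5% of cells, with Maf at 15.2 CPM against 8.01 CPM in cells beyond the 4 commonest. Without Trbv12-1 cells in both libraries the Aged level was 3.63 times that of Young. In WT, Maf ranged over the 4 commonest segments from 38.0 CPM (Trbv12-1) to 263 CPM (Trbv14), but no segment was detected in 80.1% of WT and 79.4% of KO cells.

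Co-detection tied Il10 to Maf in the first pair. Of thinned WT cells with a UMI of Il10, 74 of 100 also had one of Maf (74.0%, 64.3 to 82.3), against 15.5% of the other WT cells. In KO this was 17 of 31 (54.8%, 36.03 to 72.7) against 10.5%. In the transferred cells it was 1 of 35 in Young (2.86%, 0.0723 to 14.9) against 2.06%, and 5 of 45 in Aged (11.1%, 3.71 to 24.1) against 5.72%. The excess was thus wide in WT and KO, and the Young and Aged intervals included the share of the other cells. Of 190 thinned Young cells with Maf, 176 held 1 UMI, and the Young level was near that of tumour and fibroblast barcodes. The Young shares, here and for the linked genes below, therefore cannot show that a tie was absent. Read the other way, Il10 was found in 5.15% of WT cells with Maf and 0.349% without, in 1.97% and 0.193% of KO cells, in 0.526% and 0.378% of Young cells and in 1.08% and 0.527% of Aged cells.

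The tie to Il10 grew with the number of Maf UMIs in WT. Il10 was found in 0.349% of WT cells with 0 Maf UMIs, 2.95% with 1, 7.34% with 2 and 11.0% with 3 or more, the last being 236 cells. In KO the shares were 0.193%, 1.35%, 1.29% and 6.09%. Within the Setbp1 and Izumo1r cluster, Il10 was found in 9.004% of WT cells with Maf (47 of 522) and 1.497% without, and in 5.44% (8 of 147) and 0.904% of KO cells. Outside that cluster the shares were 2.95% and 0.223% in WT and 1.26% and 0.159% in KO. The excess was therefore present on both sides of the cluster border. The cells outside include the Foxp3, Areg and Il2ra cluster, where Il10 was found in 8.82% of WT and 5.10% of KO cells. The excess outside was not read without that cluster.

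**Figure D4:**
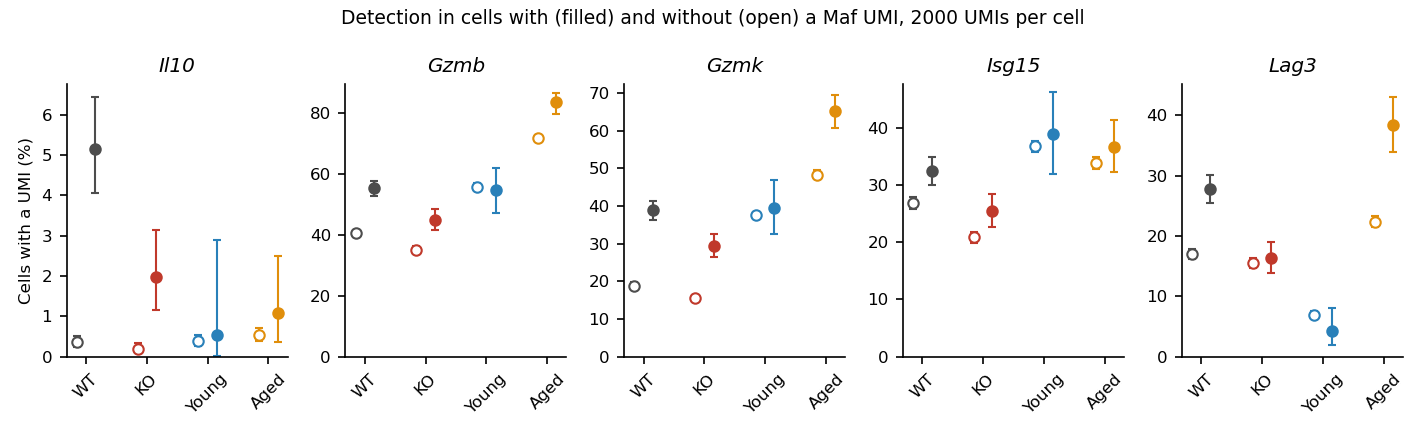
Share of thinned cells (2000 UMIs each) with a UMI of Il10, Gzmb, Gzmk, Isg15 or Lag3 (vertical axes, percent, from 0) among cells with a Maf UMI (filled) and without (open), by library; bars, exact 95% binomial intervals for counting error. Filled points lay above open ones for Gzmb and Gzmk in WT, KO and Aged, whereas in Young the intervals included the open points of all 5 genes.

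The 4 linked genes differed within the pairs as follows. Gzmb stood at 1028 CPM in WT, 643.5 in KO, 977 in Young and 2012 in Aged, or 0.626 times in KO over WT and 2.06 times in Aged over Young. Gzmk stood at 144, 111, 279 and 439 CPM, or 0.774 and 1.57 times. Lag3, a co-inhibitory receptor of T cells that binds MHC class II, stood at 137, 121, 52.4 and 186 CPM, or 0.884 and 3.55 times. Isg15, a ubiquitin-like protein induced by type I interferon, stood at 283, 197, 382 and 322 CPM, or 0.696 and 0.844 times. Gzmb, Gzmk and Lag3 thus lay with Maf in both pairs and Isg15 only in the first. Cells with Maf and cells without it were then compared within each library.

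Gzmk was found more often in cells with Maf in 3 libraries: 38.9% against 18.8% in WT, 29.4% against 15.5% in KO and 65.2% against 48.3% in Aged. In Young it was 39.5% (32.5 to 46.8) against 37.5%, with the interval including the other share. Gzmb followed the same order, at 55.3% against 40.5% in WT, 45.02% against 35.1% in KO, 83.6% against 71.8% in Aged and 54.7% (47.4 to 62.0) against 55.9% in Young. Isg15 differed less, at 32.5% against 26.9% in WT, 25.5% against 20.9% in KO, 36.7% (32.3 to 41.3) against 33.8% in Aged and 39.0% (32.0 to 46.3) against 36.8% in Young. Tumour and fibroblast barcodes, read with a Gzmk UMI in 1 of 319, a Gzmb UMI in 2 of 319 and a Lag3 UMI in 3 of 319 when thinned, lay far below these shares, but they carried Isg15 themselves.

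Lag3 was more frequent in cells with Maf in WT and Aged, and in KO and Young the interval included the share of the other cells. It was found in 27.7% (25.4 to 30.1) of WT cells with Maf and 17.0% without, and in 38.4% (34.0 to 43.1) and 22.4% of Aged cells. In KO the shares were 16.3% (13.9 to 19.0) and 15.4%, and in Young 4.21% (1.84 to 8.13) and 6.95%. Split by the Setbp1 and Izumo1r cluster, KO cells with Maf inside it had Lag3 in 48.3% (40.0 to 56.7) against 35.8% of those without Maf, and outside it in 9.76% (7.69 to 12.2) against 14.5%. In KO the cells with Maf thus had Lag3 more often inside the cluster and less often outside it. The KO cells outside include 2 clusters rich in Maf: that of Il17a, Il17f and Cpm (43.3% with Maf) and that of Foxp3, Areg and Il2ra (39.8%). The part of these clusters in the Lag3 shares was not tested. In WT they were 50.2% against 40.8% inside and 14.9% (12.6 to 17.4) against 14.4% outside. The WT cells outside the cluster differed by less than their interval, and the cluster held 522 of the 1436 WT cells with Maf.

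Prdm1 (chromosome 10, 44437177 to 44528501, minus strand, 8 exons in its first listed transcript) showed little of the Maf pattern. It was at 22.7 CPM in WT (21.6 to 23.7), 24.4 in KO (23.3 to 25.6), 14.3 in Young (13.3 to 15.3) and 21.9 in Aged (20.7 to 23.0). WT and KO lay close together and Aged above Young. The ratio was 1.08 in KO over WT (1.01 to 1.15), and fell on the other side of 1 without the clusters led by markers of other cell types (0.990, interval 0.923 to 1.06). In Aged over Young it was 1.53 (1.41 to 1.67), and 1.32 (1.12 to 1.54) in thinned cells, which is short of 1.5 times. Thinned shares were 4.81%, 4.91%, 3.06% and 3.95% in WT, KO, Young and Aged, and unthinned shares 14.3%, 15.7%, 7.64% and 12.9%. The background barcodes held 12 Prdm1 UMIs among 8215510 (1.46 CPM), and 2 of 319 had one when thinned. Of the 12, 7 lay in the 13 KO barcodes (14.5 CPM), so the KO background was not well measured.

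Prdm1 was highest in the Foxp3, Areg and Il2ra cluster of KO (66.0 CPM, against 47.0 in WT), in the cluster led by the heat shock genes Hspa1a, Hspa1b and Hsph1 of WT (54.1 CPM, against 32.7 in KO) and in the Ifnl2, Adap1 and Zbtb32 cluster (50.4 CPM in Aged and 48.1 in Young). Among clusters with at least 50 cells of each library it was lowest in those with Dapl1 among their leading genes, at 5.74 CPM in WT, 5.63 in KO, 1.51 in Young and 3.34 in Aged. Prdm1 was found in 6.83% (5.58 to 8.25) of WT cells with Maf and 4.42% without, and in 6.05% (4.06 to 8.62) and 3.82% of Aged cells. The shares were 5.90% (4.43 to 7.69) and 4.79% in KO and 2.11% (0.577 to 5.30) and 3.08% in Young. Cells with Prdm1 had Gzmb more often in all 4 libraries: 53.4% against 42.4% in WT, 49.8% against 35.5% in KO, 61.9% against 55.7% in Young and 82.7% against 72.0% in Aged. Il10 was found in 9 of 427 WT cells, 4 of 398 KO cells, 1 of 281 Young cells and 6 of 318 Aged cells with Prdm1, too few to order the libraries.

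The DNA just before the start sites of Prdm1, Gzmb and Isg15 is shown. These are the member and the linked genes whose windows held a match to a motif searched for. The sequence lets the letters be read beside the co-detection. RefSeq windows (GRCm38.p6) were found for 4 of the 9 genes, of which Prdm1 was the one member. The 250 bases before the start were searched on both strands for the Maf half-site TGCTGA, the AP-1 element TGANTCA, which c-Maf can share with AP-1 factors, and the interferon-stimulated response element, taken as GAAA, any 2 bases and GAAA. Capitals mark matches, and no match of one motif overlapped a match of another.

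Prdm1: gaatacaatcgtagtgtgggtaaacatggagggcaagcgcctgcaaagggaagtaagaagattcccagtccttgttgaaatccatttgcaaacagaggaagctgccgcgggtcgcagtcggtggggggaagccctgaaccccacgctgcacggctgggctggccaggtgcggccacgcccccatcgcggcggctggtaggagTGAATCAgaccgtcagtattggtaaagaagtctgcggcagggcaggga
Gzmb: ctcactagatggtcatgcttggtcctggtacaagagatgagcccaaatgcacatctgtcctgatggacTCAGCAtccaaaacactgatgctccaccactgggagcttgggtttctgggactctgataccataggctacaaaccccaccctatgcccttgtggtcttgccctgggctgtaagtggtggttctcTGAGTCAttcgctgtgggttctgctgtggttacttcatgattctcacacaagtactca
Isg15: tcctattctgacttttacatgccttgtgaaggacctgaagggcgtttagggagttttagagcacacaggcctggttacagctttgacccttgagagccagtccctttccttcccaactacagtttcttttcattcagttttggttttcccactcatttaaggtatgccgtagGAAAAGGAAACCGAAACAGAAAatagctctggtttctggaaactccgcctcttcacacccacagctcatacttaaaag

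Starts here are those of the RefSeq windows and differ from the ends of some annotated genes. The Prdm1 window lies inside the gene span given above, 44437177 to 44528501, and the Gzmb window lies beyond the annotated gene end at 56262260. Prdm1 (chr10:44458749-44458998, minus strand) held TGAATCA 48 to 42 bases before the start and no TGCTGA. Gzmb (chr14:56262335-56262584, minus strand) held TCAGCA, the half-site on the other strand, at 182 to 177 bases and TGAGTCA at 58 to 52 bases. Isg15 (chr4:156200819-156201068, minus strand) held 3 overlapping interferon elements between 78 and 57 bases, and Gzmk held none of the motifs. Of all 32851 windows of this length, 16.1% held the half-site, 6.75% the AP-1 element and 2.98% the interferon element. A match is a description of letters, and absence in a window says nothing of binding elsewhere.

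By a rule applied to all genes at 20 CPM or more in every library (4606 compared), the genes whose level in Maf-positive over Maf-negative thinned cells was highest in its lowest library were Runx1, Tnfrsf4, Cd84, Ifit1, Itpr2 and Mif4gd. Runx1, a transcription factor of T cell development, had log2 ratios of 0.51 in WT, 0.56 in KO, 0.66 in Young and 0.48 in Aged. Tnfrsf4, the costimulatory receptor OX40, had 0.92, 0.44, 0.74 and 0.87. Cd84, a SLAM family receptor, had 0.61, 0.56, 0.38 and 0.42, and the interferon-induced Ifit1 had 0.41, 0.69, 0.56 and 0.37. The lowest were Fgb, Nrgn, Xcl1 and Ccr7. Xcl1, a chemokine that draws dendritic cells, had log2 ratios of -1.26, -1.65, -0.78 and -1.93, and Ccr7, the lymph node homing receptor, -0.90, -0.75, -0.60 and -1.41. Fgb leads a cluster with tumour cell genes in each pair.

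For Prdm1 the same rule named Hspa1a, Hspa1b, Ccl4, Ccl3, Ptger4 and Lag3, and on the low side Fgb, Trf, Ccl2 and Ccr7. The heat shock gene Hspa1a had log2 ratios of 0.96 in WT, 0.96 in KO, 1.24 in Young and 0.87 in Aged. The chemokine gene Ccl4 had 0.48, 0.61, 0.96 and 1.19, and Lag3 0.47, 0.44, 0.39 and 0.64. Ccr7, on the low side, had -0.71, -0.51, -1.37 and -1.38. The rule picks genes that go the same way in each library, so the shared sign is no separate result. The lists of Maf and Prdm1 shared Fgb and Ccr7 on the low side and no gene on the high side. These are likenesses over 4 libraries with a pseudocount of 10 CPM. Il10 had under 100 positive cells in 3 libraries and was not ranked.

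The interleukin 10 pathway was next read as a list in the first pair. Of 20 genes of the interleukin 10 pathway list, 11 were measured, and 0 were at least 1.5 times higher and 0 at least 1.5 times lower in KO, beside 0.607% and 3.09% of all measured genes. For so few genes a count of 0 is near those shares. Without the members Il10ra and Il10rb it was 0 of 9, and Il10 was not among the measured genes. The ends of the list were Nfil3, a transcription factor gene, at 1.15 times and Socs3, a feedback inhibitor of STAT3 signalling, at 0.771 times. Stat3 itself stood at 461 CPM in KO and 445 in WT, and Jak1 at 436 and 413. The median log2 ratio of the list was 0.00 against -0.05 over all measured genes.

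In Aged over Young, 2 of the 11 measured pathway genes were at least 1.5 times higher, beside 2.62% of all measured genes, and 0 were lower, beside 3.83%. They were Il10ra and Stat3, the latter at 525 CPM in Aged and 341 in Young (1.54 times, 1.51 to 1.57). Il10ra is a member, and without the members 1 of 9 was higher. Stat3 fell short of 1.5 times with another scaling. Socs3 was the lowest, at 116 CPM in Aged and 154 in Young (0.750 times). The median log2 ratio was 0.12 against 0.08 over all measured genes. In either direction, 6.45% of measured genes passed 1.5 times in this pair and 3.7% in the other.

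Among 25 regulators of Il10 in T cells, 24 were measured in the first pair, with 0 higher and 4 lower in KO, beside 0.607% and 3.09% of all measured genes. Maf, selected on these values, is 1 of the 4, and without the members 3 of 22 were lower. Egr2, a factor induced by receptor signalling, was the lowest, at 7.14 CPM in KO and 12.97 in WT (0.551 times), and Il12rb2, a chain of the interleukin 12 receptor, the highest, at 1.45 times. Of these, 23 were measured in Aged over Young, with 6 higher and 1 lower, beside 2.62% and 3.83% of all measured genes. Maf and Prdm1 are among the 6, and without the members 4 of 21 were higher. The median log2 ratio of the list was 0.01 in the first pair and 0.13 in the second. Batf, an AP-1 factor of effector T cells, stood at 101 CPM in Aged and 55.6 in Young (1.81 times). Ahr, the aryl hydrocarbon receptor and a known partner of c-Maf, was the lowest at 15.8 and 42.5 CPM (0.370 times).

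Of 11 genes of the Maf family and its partners, 8 were measured in each pair, Maf itself being 1 of them. Leaving Maf out, 0 of 7 passed 1.5 times in either direction in KO over WT, beside 3.7% of all measured genes, and Bach2, a repressor that pairs with small Maf proteins, was the highest at 1.248 times. Among the same 7 genes 0 were higher and 3 lower in Aged, beside 2.62% and 3.83% of all measured genes. With Maf, the list's median log2 ratios were -0.09 and -0.41. Maff, a small Maf protein, stood at 10.3 CPM in Aged and 26.0 in Young (0.397 times), Nfe2l2, the oxidative stress factor NRF2, at 0.639 times and Bach1 at 0.647 times.

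Of 14 co-inhibitory receptors tied to Maf and Prdm1, 10 were measured in each pair. In KO over WT 0 of the 10 passed 1.5 times, beside 3.7% of all measured genes in either direction, with Cd101 highest at 1.49 times and Ctla4 lowest at 0.782 times. Procr and Pdpn, under 10 CPM and so not counted, were at 0.360 and 0.298 times. Against Young, 5 were higher and 2 lower in Aged, beside 2.62% and 3.83% of all measured genes, and without Lag3 4 of 9 were higher. The median log2 ratio was 0.03 in the first pair and 0.55 in the second. Lag3 at 3.55 times led the higher ones, and Procr, the protein C receptor, was the lowest at 0.276 times (2.83 CPM in Aged and 10.3 in Young). The Ctla4 level, also counted among markers of CD4 and regulatory T cells, was 283 CPM in Aged and 102 in Young.

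Of 15 genes that Blimp-1 is known to lower, 12 were measured in each pair. In KO over WT 0 were higher and 2 lower, beside 0.607% and 3.09% of all measured genes, with Il7r, the interleukin 7 receptor, highest at 1.37 times and Myc lowest at 0.549 times. In Aged over Young 0 were higher and 3 lower, beside 2.62% and 3.83%, with Id3, a factor of memory cells, lowest at 11.2 and 23.9 CPM (0.467 times) and Ifng highest at 1.40 times. The list's median log2 ratios were 0.03 and -0.32. Of 10 genes of effector differentiation, 9 were measured in KO over WT, where 1 was lower (Gzmb, a linked gene), beside 3.09% of all measured genes, and Cx3cr1 was highest at 1.41 times. Against Young, 5 of 10 were higher and 0 lower in Aged, beside 2.62% and 3.83%, and 4 of 9 were higher without Gzmb. The median log2 ratios were 0.17 and 0.53. Zbtb32 was the highest, at 45 CPM in Aged and 8.54 in Young (5.27 times), and Ikzf2 the lowest at 0.817 times.

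**Figure D5:**
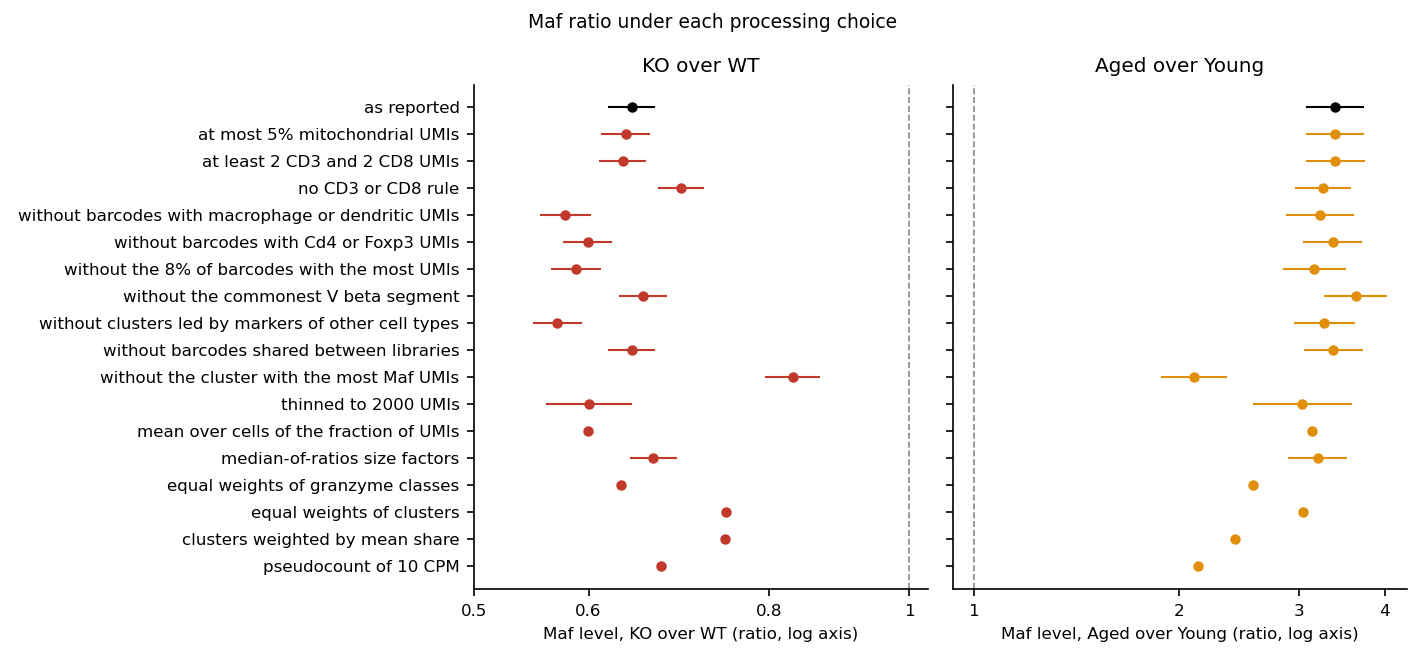
Maf level ratio (horizontal log axes) as reported and under each processing choice, KO over WT at left and Aged over Young at right; lines, exact 95% intervals where the value is a ratio of counts; the dashed line marks 1. All settings shown stayed on the same side of 1, from 0.571 to 0.830 at left and from 2.10 to 3.63 at right.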

How the data were processed

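The deposited values were whole-number UMI counts per gene and barcode, which the authors made with Cell Ranger per the file headers (6.1.1 for WT and KO, 7.1.0 for Young and Aged). Against this, Cell Ranger is listed as 6.0.0 in the submitters' processing notes, beside the build mm10 and Seurat 3.2.3, so the version is not settled. The sources used here do not give the annotation release, the handling of intronic reads or the calling of barcodes. Gene positions came from GENCODE M21 on GRCm38 through the gene IDs in the files.

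UMIs were summed over CD3 and CD8 positive barcodes and given per 1000000 UMIs (CPM) with exact 95% Poisson intervals. Ratios carry exact conditional binomial intervals and shares exact Clopper-Pearson intervals, and all of these cover counting error only. With 1 library per group no test was made. For shares, cells were thinned once to 2000 UMIs, which left out 80 WT, 45 KO, 611 Young and 201 Aged cells. A log2 ratio used a pseudocount of 1 CPM. Each pair was clustered by Leiden (scanpy 1.11.5, igraph 0.11.9, resolution 0.6, 2000 variable genes, 30 components, 15 neighbours). No doublet caller was run, so doublets remain, and removal of the 8% of barcodes with the most UMIs was an alternative. The count and ratio steps were tested on simulated data. All groups came from the labels.

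Named genes were the 5 members, the 4 linked genes, Bfar, the genes most and least like Maf and Prdm1, and the highest and lowest measured gene of each list. A few further genes (Stat3, Jak1, Batf, Nfe2l2, Bach1, Ctla4, Pdpn) were named after their values were seen. Some genes are not reported here, and cluster names leave them out. The members and lists were chosen with earlier results of these data known.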

Additional observations from a re-analysis of the deposited data

How the results depend on the processing

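The Maf ratio of KO over WT stayed below 1 under all 17 alternatives and within its counting interval under 6. It was 0.695 with no CD3 or CD8 rule, 0.578 without barcodes with macrophage or dendritic cell UMIs, 0.5995 without barcodes with Cd4 or Foxp3 UMIs, 0.588 without the 8% of barcodes with the most UMIs, 0.601 in thinned cells and 0.5996 as a mean over cells. It was 0.746 with equal weights of clusters, 0.745 with mean shares of clusters, 0.673 with a pseudocount of 10 CPM, 0.571 without clusters led by markers of other cell types and 0.830 without the cluster with the most Maf UMIs. The Maf ratio of Aged over Young stayed above 1.5 under all 17: it was 3.02 in thinned cells, 2.56 with equal weights of granzyme classes, 3.04 with equal weights of clusters, 2.41 with mean shares of clusters, 2.13 with a pseudocount of 10 CPM and 2.10 without the cluster with the most Maf UMIs. Alternatives on clusters led by other cell types, on mean shares of clusters, on the top Maf cluster and on shared barcodes, and those on the other 4 genes, were chosen after seeing the data. Prdm1 in KO over WT crossed 1 in 3 of 7 alternatives, at 0.990 without clusters led by markers of other cell types, 0.977 without barcodes with macrophage or dendritic cell UMIs and 0.991 in thinned cells. Il10, Il10ra and Il10rb kept their direction in both pairs. Pathway genes past the threshold in KO and WT numbered 0 as reported, 5 with no filter on low counts and 2 at the lower threshold tried. In Aged and Young they numbered 2, 5 with no filter, 5 at the lower threshold and 1 with median-of-ratios size factors. The cause of these shifts was not tested.

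No paired analysis was possible because each group held 1 library and the labels give no replicate numbers. Depth limits Il10 most: it rested on 113 to 447 UMIs per library, and its share in every library lay under the limit set by the background barcodes of that library. The intervals measure counting error, not the spread between mice or tumours. Fewer cells of a kind and less RNA per cell can both lower a summed level, and the clusters that weigh most differ in size between the libraries of a pair.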

Other observations

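Barcodes that passed the depth and mitochondrial filters but not the CD3 and CD8 rule numbered 439 in WT, 257 in KO, 735 in Young and 546 in Aged. Their Maf level was 40.9 CPM in WT (36.8 to 45.4), 94.7 in KO (83.4 to 107), 9.12 in Young (6.99 to 11.7) and 14.4 in Aged (11.3 to 17.9). In the first pair the order was thus the reverse of that among CD3 and CD8 positive cells. Il10 was counted 6 times in the WT barcodes, 13 times in KO, 26 times in Young and 13 times in Aged. What kinds of cells these barcodes hold in each library was not tested.

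Maf and Il10ra did not lie in the same cells in equal measure across libraries. Of Aged cells with a Maf UMI 30.7% (26.5 to 35.1) had one of Il10ra, against 19.0% without, and in Young the shares were 10.5% (6.55 to 15.8) and 10.3%. In WT they were 6.34% (5.13 to 7.72) and 3.49%, and in KO 5.21% (3.82 to 6.91) and 2.62%. In the Sdcbp2, Itga4 and Setbp1 cluster of Aged the shares were 30.2% (24.8 to 36.1) and 26.2%, and outside it 31.3% (24.9 to 38.3) and 16.2%.

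The rule for likeness, applied also to Il10ra although it had not been set for it, named Lag3, Havcr2, Ifit1, Ier5l, Tox and Pdcd1 on the high side. Pdcd1, which encodes the receptor PD-1, had log2 ratios between Il10ra-positive and Il10ra-negative cells of 0.58 in WT, 0.59 in KO, 0.73 in Young and 1.04 in Aged. Tox, a factor of exhausted T cells, had 0.59, 0.70, 0.76 and 0.72. Ifitm1 and Ifitm2 led the low side, Ifitm1 with -1.42, -1.25, -1.16 and -2.67.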
